A study of Mus musculus with 2 samples.

Results

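The genes described here are 10 components of the Hedgehog pathway and of the transport system of the primary cilium, measured in mouse fetal palate: the ligand Shh, the receptor Ptch1, the signal transducer Smo, the transcription factors Gli1, Gli2 and Gli3, the ligand-binding proteins Hhip and Gas1, and the ciliary transport genes Kif3a and Ift88. They were taken by name, with every probe set that the platform annotation assigns to 1 gene only, which gave 26 of the 34945 probe sets of single genes and 10 of 18193 genes. One sample was palate of an E18.5 (embryonic day) fetus or fetuses on the BALB/c background labelled null for both Myf5 and MyoD, the transcription factors that commit cells to skeletal muscle. The other sample was wild-type BALB/c palate of the same age. Each genotype had 1 array, and the labels give neither pooling of fetuses nor the removed part of Myf5 or MyoD.

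Hedgehog ligands signal by binding Ptch1, which releases Smo from inhibition. Smo then enters the primary cilium, a single non-motile projection of most cells, where full-length Gli proteins are turned into activators and the cleavage of Gli3 into a repressor is reduced. Traffic along the cilium runs on intraflagellar transport, in which kinesin motors carry the IFT-B complex to the tip and dynein with the IFT-A complex returns it. In the developing mouse palate Shh is made by the oral epithelium, and the underlying mesenchyme responds. Ptch1, Gli1 and Hhip are also transcriptional targets, so their transcripts are commonly used as readouts of the pathway.

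Values below are linear MAS5 signal intensities per probe set, rescaled so that the brighter probe sets of both arrays have the same median. Ratios are log2 differences with the array labelled double null on top and wild type below. A probe set was taken as measured if at least 1 of its signals reached 658, the 60th percentile of all values. Signals under 287, the 40th percentile, were set to that floor before ratios were taken. With 1 array a genotype there was no test and no p-value, and genotype cannot be told apart from differences between animals, between dissections or between hybridisations. The only measure of spread is that between probe sets reading the same gene. Their log2 ratios had an SD of 0.51, pooled over 4030 genes and their 10190 measured probe sets. It holds no spread between animals, dissections or hybridisations. Signals of different probe sets are not comparable as amounts of RNA, so genes are compared by their ratios and not by their levels.

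Facts of the arrays that touch every ratio are these. The measured probe set of Myod1, the gene of MyoD, did not set the arrays apart, with signals of 1663 on the array labelled double null and 1938 in wild type. The only Myf5 probe set, which was not measured, had 531 on the array labelled double null and 517 in wild type. Eif2s3y, a gene of the Y chromosome, had signals of 2794 on the array labelled double null and 10.8 in wild type by its measured probe set. Its other probe set was under the floor on both arrays. Xist, the RNA of the inactive X chromosome, was bright on both arrays, with 16947 on the array labelled double null and 33813 in wild type by its brightest probe set, and it was lower on the array labelled double null by all 3. The array labelled double null thus carried RNA of both Eif2s3y and Xist, while on the wild-type array Eif2s3y was under the floor. The arrays so differed in sex-linked RNA, though not simply as male against female, since Xist was bright on both. That difference cannot be told apart from genotype. Among all 11238 measured genes, 4.22% were lower by 2-fold or more on the array labelled double null and 3.51% were higher by as much, and the median log2 ratio was 0.07. The lower share of genes past 2-fold was 54.6%, against 65.0% without rescaling, 25.2% after scaling on the median signal of reference genes and 74.7% after scaling on the median of their ratios. With scaling on the median signal, the 13 measured reference genes themselves had a median log2 ratio of 0.37, with 12 above 0. That scaling thus did not bring their own ratios to 0, while scaling on the median of their ratios did. Of the markers of the labelled tissue, Prrx1, a factor of facial mesenchyme, had signals of 8533 on the array labelled double null and 10074 in wild type, and 6 of 8 listed mesenchyme markers were measured. Osr2, a factor of palatal mesenchyme, was not, with 45.6 on the array labelled double null and 379 in wild type.

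None of the 9 measured Hedgehog and ciliary genes passed 2-fold in either direction by its brightest probe set, beside 4.22% lower and 3.51% higher among all measured genes. Their median log2 ratio was -0.03, with 5 genes below 0 and 4 above, and it turned to 0.19 with scaling on the median signal of reference genes. In 6 of the 9 the ratio was below the pooled SD of 0.51, as it was in 70.4% of all measured genes. Gli1 was the gene not measured. In bulk tissue, fewer cells of a type and less RNA per cell cannot be told apart, which holds for every ratio given here.

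**Figure D1:**
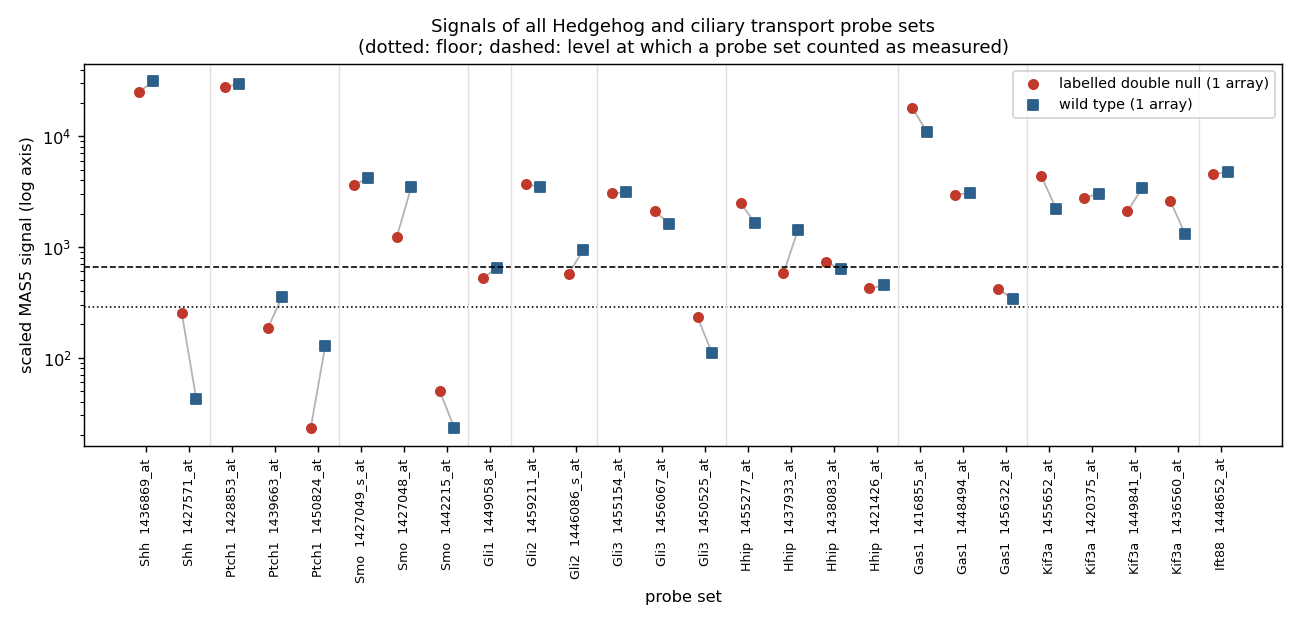
Scaled MAS5 signal (log axis) of each of the 26 member probe sets, with the array labelled double null as circles on the left and the wild-type array as squares on the right of each pair. The dotted line is the floor at 287 and the dashed line the measured level at 658; 18 probe sets reached the dashed line on at least 1 array, and among these Smo 1427048_at and Hhip 1437933_at are lowest relative to wild type, next to other probe sets of the same genes within 2-fold.

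The ligand gene was similar on both arrays. Shh, the secreted signal of the palatal epithelium, had signals of 24887 on the array labelled double null and 31522 in wild type by probe set 1436869_at, a log2 ratio of -0.34 or 1.27-fold lower. The ratio stayed below 0 under every alternative scaling, from -0.53 to -0.12. The other settings could not change it, since only 1 Shh probe set was measured and it was bright on both arrays. It was smaller than the SD between probe sets, and 47.8% of all measured genes differed by at least as much. The second Shh probe set, 1427571_at, lay under the floor on both arrays (255 on the array labelled double null, 42.1 in wild type), so it gives no ratio.

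Markers of the oral epithelium were mostly lower too. Of 9 listed 8 were measured, 6 of them below 0, with a median log2 ratio of -0.45 that stayed below 0 under every scaling tried (-0.63 to -0.23). Their summed signal was 107714 on the array labelled double null and 135872 in wild type. Krt5, the keratin of the basal layer, had a ratio of -0.59, and Krt4 and Krt13 of the suprabasal oral mucosa were 4.75-fold and 3.03-fold lower. The other measured markers ran from -0.70 to 0.85 by their brightest probe sets. The upper end was Epcam, an adhesion molecule of epithelia, whose other measured probe set was 2.67-fold lower, with 6723 on the array labelled double null and 17978 in wild type, so its direction depended on the probe set. None of the listed markers was under the floor on both arrays. Their part in the Shh ratio was not tested.

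Ptch1, receptor and readout of the pathway, was nearly equal on both arrays. Its probe set 1428853_at had signals of 27605 on the array labelled double null and 29936 in wild type, a log2 ratio of -0.12. That ratio turned to 0.10 with scaling on the median signal of reference genes and stayed below 0 under the other scalings. The remaining settings could not change it, since only 1 Ptch1 probe set was measured and it was bright on both arrays. Of all measured genes 80.3% differed by at least as much. The 2 further Ptch1 probe sets were not measured: 1439663_at had 183 on the array labelled double null and 355 in wild type, and 1450824_at was under the floor on both arrays (22.9 labelled double null, 128 wild type).

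Gli1, the activator that is itself switched on by the pathway, fell just short of the measured level. Its only probe set, 1449058_at, had signals of 520 on the array labelled double null and 649 in wild type, a log2 ratio of -0.32. In the 3 settings under which it counted as measured, the ratio lay between -0.47 and -0.32. It counted so only through a raised wild-type signal or a lower measured level. That range is therefore no separate support for a lower ratio.

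Hhip, a membrane protein that binds Hedgehog ligands and so restrains their spread, gave ratios of both signs. The brightest probe set, 1455277_at, had signals of 2496 on the array labelled double null and 1643 in wild type, a log2 ratio of 0.60. Probe set 1437933_at had 579 on the array labelled double null and 1432 in wild type and was 2.47-fold lower (log2 ratio -1.31). The third measured probe set, 1438083_at, with 727 labelled double null and 628 wild type, had a ratio of 0.21. The last, 1421426_at, was not measured (422 labelled double null, 449 wild type). The measured Hhip probe sets thus disagreed in direction: the 3 spanned 1.91 on the log2 scale, a range that 3.15% of the 890 genes with 3 measured probe sets reached. Averaged over them, the Hhip ratio was -0.16, the opposite sign of the brightest probe set.

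The readouts thus gave no common direction across their probe sets. Ptch1 was a little lower with the main scaling and within the spread between probe sets. Gli1 was not measured, and Hhip depended on the probe set read.

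Smo, the transmembrane protein that carries the signal into the cilium, was lower by both of its measured probe sets with the main scaling, but by different amounts. The brightest, 1427049_s_at, had signals of 3627 on the array labelled double null and 4182 in wild type, a log2 ratio of -0.21 that turned to 0.01 with scaling on the median signal of reference genes. The other, 1427048_at, had 1218 on the array labelled double null and 3462 in wild type and was 2.84-fold lower (log2 ratio -1.51). The suffix of the first marks a probe set that can read related transcripts, and with such probe sets left out Smo was the 1 member gene past 2-fold. A gap of this size between 2 measured probe sets was found in 6.92% of 2643 genes. Probe set 1442215_at lay under the floor on both arrays (50.3 labelled double null, 23.2 wild type).

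Gas1, a membrane-anchored co-receptor that promotes Hedgehog signalling and is repressed by it in several tissues, was higher by its brightest probe set. Probe set 1416855_at had signals of 18004 on the array labelled double null and 10861 in wild type, a log2 ratio of 0.73 or 1.66-fold. Probe set 1448494_at had 2951 on the array labelled double null and 3084 in wild type, a ratio of -0.06, so the difference seen by the first was not seen by the second. The last, 1456322_at, was not measured (415 labelled double null, 336 wild type). Of all measured genes, 16.6% differed by at least as much as the brightest Gas1 probe set.

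The transcription factors that receive the signal were nearly equal by their brightest probe sets. Gli2, the main activator, had signals of 3677 on the array labelled double null and 3508 in wild type by 1459211_at, a log2 ratio of 0.07. Its second probe set, 1446086_s_at, had 572 on the array labelled double null and 933 in wild type, a ratio of -0.70. The annotation traces both Gli2 probe sets to the same source sequence.

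Gli3, the main repressor in the absence of ligand, had signals of 3042 on the array labelled double null and 3104 in wild type by 1455154_at, a log2 ratio of -0.03. By 1456067_at it had 2113 labelled double null and 1628 wild type, a ratio of 0.38, and 1450525_at was under the floor on both arrays (232 labelled double null, 109 wild type). The small ratios of Gli2 and Gli3 had no settled sign, since 3 of 11 settings for Gli2 and 2 of 11 for Gli3 turned it. Protein processing of Gli2 and Gli3 is not measured by these arrays.

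**Figure D2:**
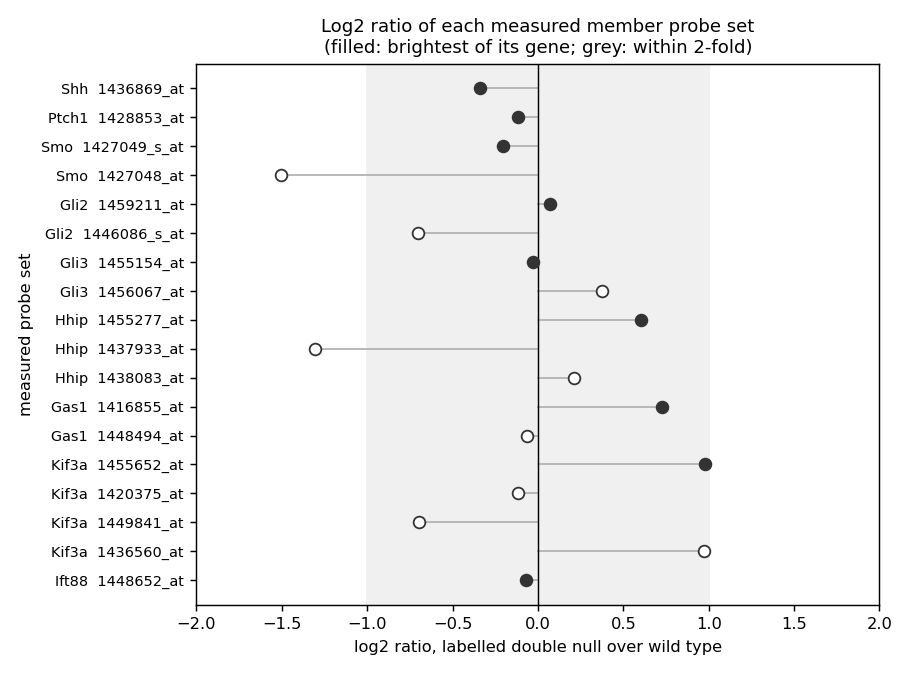
Log2 ratio (labelled double null over wild type) of each of the 18 measured member probe sets. Filled points are the brightest probe set of a gene and open points the others; the 2 points outside the grey 2-fold band are Smo at -1.51 and Hhip at -1.31, both open.

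Kif3a, the motor subunit of kinesin-2 that drives transport towards the ciliary tip, had the largest ratio of the 9 measured genes when each was read by its brightest probe set, and its 4 probe sets split into pairs. The brightest, 1455652_at, had signals of 4356 on the array labelled double null and 2215 in wild type, a log2 ratio of 0.98 or 1.97-fold. Probe set 1436560_at had 2590 on the array labelled double null and 1320 in wild type, a ratio of 0.97. Both were close to 2-fold higher.

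The other pair of Kif3a probe sets ran the other way. Probe set 1420375_at had 2791 on the array labelled double null and 3024 in wild type, a log2 ratio of -0.12, and 1449841_at had 2093 labelled double null and 3392 wild type, a ratio of -0.70. The annotation ties both of these to one RefSeq transcript of Kif3a, and the pair that was higher to a separate source sequence each. The mean over all 4 was 0.28, nearer to 0 than the same mean for Smo (-0.86) or Gas1 (0.33), with a range of 1.67 that 13.0% of 338 genes with 4 measured probe sets reached. The ratio of the brightest probe set passed 2-fold in 1 of 11 settings, scaling on the median signal of reference genes, at 1.19.

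Ift88, a core subunit of the IFT-B complex without which cilia do not form, was nearly equal. Its only probe set, 1448652_at, had signals of 4532 on the array labelled double null and 4749 in wild type, a log2 ratio of -0.07, and 88.7% of all measured genes differed by at least as much. The ratio turned to 0.15 with scaling on the median signal of reference genes.

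Probe sets of one gene often differed in sign. Of the 6 member genes with over 1 measured probe set, 5 had ratios of both signs (Gli2, Gli3, Hhip, Gas1 and Kif3a), beside 49.3% of the 4030 genes on the arrays with over 1. That share is not matched for the number of probe sets a gene has. In Gli2, Gli3 and Gas1 the mixed sign rested on a ratio near 0 (0.07, -0.03 and -0.06). Of the 18 measured member probe sets, 2 were lower by 2-fold or more and none was higher by as much, beside 4.52% lower and 3.68% higher among all 17407 measured probe sets of single genes. Isoforms, 3' ends and cross-hybridisation were not tested as sources of the gaps.

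Promoter sequence was looked at because Myf5 and MyoD bind the E-box, the letters CANNTG. In the 250 bases before the annotated start (RefSeq, GRCm38.p6), found for 8 of the 10 genes, CANNTG occurred in the windows of Kif3a, Gli3 and Ift88 and not in those of Gli2, Smo, Hhip, Gas1 and Ptch1. Of all 32851 promoter windows of that length, 66.2% hold it on either strand, on which it reads the same. The form CAGCTG, itself a CANNTG, occurred in none of the 8 windows and in 13.0% of all, and the GLI consensus GACCACCCA, sought on both strands, in none of the 8 and in 0.225% of all. The 3 windows with an E-box are shown with it in capitals, each 5′ to 3′ on the strand of its gene. They lie at chr11:53567119-53567368 (plus strand, Kif3a), chr13:15463473-15463722 (plus strand, Gli3) and chr14:57423821-57424070 (plus strand, Ift88).
Kif3a: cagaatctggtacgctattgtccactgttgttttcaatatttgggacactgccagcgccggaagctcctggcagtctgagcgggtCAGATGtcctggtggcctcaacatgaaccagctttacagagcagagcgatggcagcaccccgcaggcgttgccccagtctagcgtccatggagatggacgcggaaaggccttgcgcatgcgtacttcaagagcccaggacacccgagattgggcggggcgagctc
Gli3: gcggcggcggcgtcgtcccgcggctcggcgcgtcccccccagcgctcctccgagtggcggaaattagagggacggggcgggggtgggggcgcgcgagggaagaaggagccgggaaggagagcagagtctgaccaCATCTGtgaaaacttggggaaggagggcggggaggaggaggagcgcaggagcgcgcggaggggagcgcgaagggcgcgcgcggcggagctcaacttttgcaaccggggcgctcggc
Ift88: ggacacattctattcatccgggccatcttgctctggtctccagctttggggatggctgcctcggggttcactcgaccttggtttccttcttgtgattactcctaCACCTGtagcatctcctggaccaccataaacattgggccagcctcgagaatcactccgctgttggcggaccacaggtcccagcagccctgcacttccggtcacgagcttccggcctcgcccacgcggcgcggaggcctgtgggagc
Each window holds 1 such match. No order of the ratios is read from these matches, since the order depended on the probe sets used, and no binding was measured in this series.

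Other genes of the pathway were mostly within 2-fold. Of 45 listed genes outside the 10, 30 were measured. Of these, 1 was higher by 2-fold or more and none was lower by as much, and the median log2 ratio was 0.21, against 0.07 over all measured genes. That gap depended on the probe sets read. With the mean over all measured probe sets the medians were 0.07 and 0.05, and without cross-hybridising probe sets 0.10 and 0.06. Scaling on the median signal of reference genes gave 3 higher and 0 lower, and scaling on the median of their ratios 1 higher and 2 lower.

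Among the other ligands, Dhh, the Hedgehog of peripheral nerve sheaths, was the 1 past 2-fold. It had signals of 2816 on the array labelled double null and 1258 in wild type, 2.24-fold higher, by its 1 measured probe set. The other Dhh probe set was under the floor on both arrays. Of 8 Schwann cell markers 5 were measured, with a median log2 ratio of 0.50, and their summed signal over the 6 on the array was 28073 on the array labelled double null and 23655 in wild type. Mbp, in that sum with 10580 on the array labelled double null and 7443 in wild type, had 7 other measured probe sets. Their log2 ratios ran from -0.74 to 0.42. Erbb3, the brightest Schwann cell marker, had a ratio of -0.08. The measured markers ran from -0.47 to 0.82 by their brightest probe sets, and none was under the floor on both arrays. Their part in the Dhh ratio was not tested.

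Ihh, the Hedgehog of growing cartilage and bone, was not measured (389 on the array labelled double null and 505 in wild type). Cartilage markers, of which 5 of 9 were measured, had a median of -0.40. They ran from -0.56 to 0.67, with 3 below 0 and 2 above. The summed signal of the 9 was 13294 on the array labelled double null and 14172 in wild type. Genes that modify or release ligand were sparse: Disp2, a relative of the release protein Disp1, had a log2 ratio of 0.69, and Scube3, of a family of secreted proteins that help to release the ligand, had 0.04.

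Receptors and co-receptors went both ways, with a median of -0.10 over 6 measured genes, none past 2-fold. Scaling on the median signal of reference genes gave 0.43 over 7, with 1 at least 2-fold higher. The gene added was Lrp2, which then counted as measured through its signal on the array labelled double null, so the 2 medians cover different genes. Evc2, a protein of the ciliary base that works with Smo, had a log2 ratio of -0.81, and Gpc3, a cell-surface glypican that competes for ligand, had -0.72. Gpc6, another glypican, was furthest the other way at 0.53. Lrp2, an endocytic receptor that binds Shh, was not measured with the main scaling, with 633 on the array labelled double null and 234 in wild type.

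Of the genes that act between Smo and the nucleus, 12 were measured, none past 2-fold, with a median of 0.12 that turned to -0.03 with scaling on the median ratio of reference genes. Gpr161, a ciliary receptor that keeps the pathway off by raising cAMP, had signals of 743 on the array labelled double null and 1362 in wild type, a log2 ratio of -0.87. Gsk3b, a kinase that phosphorylates Gli proteins for their processing, had 0.80 by its brightest probe set, and its 4 other measured probe sets ran from -0.88 to 0.41.

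Downstream genes that respond to Hedgehog signalling in various tissues had a median of 0.28, with 9 of 14 measured and none past 2-fold. Bmp2, a bone morphogenetic protein that is regulated downstream of Shh in palatal mesenchyme, had signals of 1826 on the array labelled double null and 3451 in wild type, a log2 ratio of -0.92. Foxd2, a forkhead factor, had -0.50. The other 7 lay between 0.05 and 0.43 by their brightest probe sets. Further measured probe sets of these genes ran from -0.79 to 0.21, so the direction depended in part on the probe set.

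**Figure D3:**
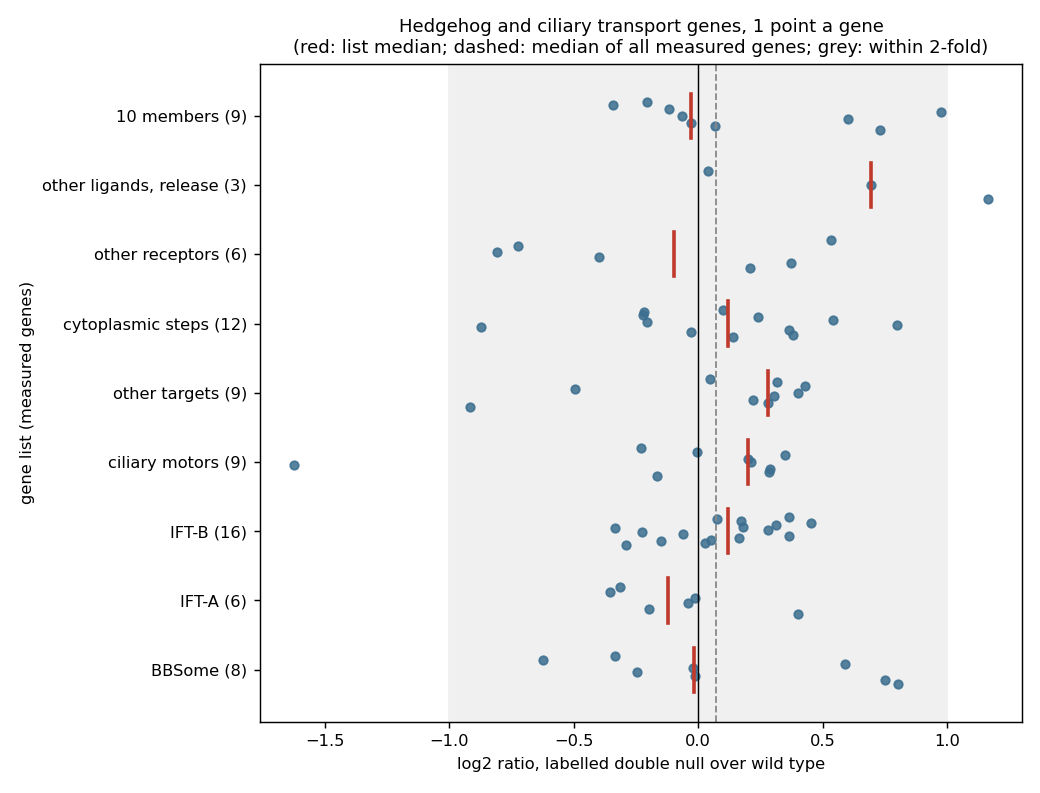
Log2 ratio (labelled double null over wild type) of each measured gene, by list, with red bars for list medians and a dashed line for the median of all measured genes, 0.07. Almost all points fall in the grey 2-fold band; the exceptions are Dhh at 1.16 among the other ligands and Kif17, plotted at its bound of -1.62, among the motors.

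The rest of the ciliary transport machinery was mostly within 2-fold. Of 41 listed genes outside the 10, 39 were measured, with a median log2 ratio of 0.03, 19 below 0 and 20 above. That even split depended on the scaling: scaling on the median signal of reference genes gave a median of 0.25 with 10 below 0 and 29 above, and scaling on the median of their ratios gave -0.12 with 22 below 0 and 17 above. With the main scaling 1 was lower by 2-fold or more and none was higher by as much. The lower gene was Kif17, a homodimeric kinesin-2 of neurons and sensory cilia, which by its brightest probe set had a signal under the floor (81.5) on the array labelled double null, against 883 in wild type, at least 3.08-fold lower. Its next probe set, not measured, had 522 on the array labelled double null and 307 in wild type, the other direction. The Kif17 call was not made in 5 settings, for different reasons. With the floor at the 20th percentile or no floor, the gene was read from that next probe set, while the first probe set itself was at least 8.13-fold lower with the floor at the 20th percentile and 10.8-fold lower with no floor. Leaving out cross-hybridising probe sets, of which the first is one by its suffix, likewise moved the reading to the next. Raising the floor to the 60th percentile gave a bound of 1.34-fold, and with the measured level at the 75th percentile the first probe set was not measured.

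The partners of Kif3a, named after their values were seen, were nearer to equal by their brightest probe sets, with 1 of Kif3c's going further. Kif3b, the second motor subunit, had a log2 ratio of 0.21 with 0.20 in its other measured probe set, and Kifap3, the non-motor subunit of the same kinesin, had 0.35 and 0.02. Kif3c, an alternative partner of Kif3a in neurons, had 0.20 by its brightest probe set and 1.21 by the other, which had signals of 3540 on the array labelled double null and 1527 in wild type. That second Kif3c probe set was 2.32-fold higher, a larger ratio than that of any Kif3a probe set.

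Neuron markers were higher on the same array: all 8 were measured and above 0, with a median of 1.29, and their summed signal was 103548 on the array labelled double null and 44931 in wild type. By their brightest probe sets, Nefl, the light neurofilament chain and the brightest marker, was 2.85-fold higher, and Elavl4, Snap25 and Rbfox3 were 3.36-fold, 2.94-fold and 2.61-fold higher. Further measured probe sets were under 2-fold for Nefl (log2 ratio 0.88) and Elavl4 (0.48 and 0.96), and past it for Snap25 (1.54). No neuron marker was under the floor on either array. Their part in the Kif3a and Kif3c ratios was not tested.

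Subunits of the outbound IFT-B complex had a median of 0.12 over 16 measured genes, with 11 above 0, and of -0.03 with 8 above 0 after scaling on the median ratio of reference genes. Traf3ip1, also called IFT54, had a log2 ratio of 0.45, Ift27, a small GTPase of the complex, 0.36 and Ift74, which binds tubulin with Ift81, -0.33. The spread from -0.33 to 0.45 is within the SD between probe sets for every one of them.

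The return complex IFT-A had a median of -0.12 over 6 measured genes, of which 5 were below 0, and of 0.10 with 2 below 0 after scaling on the median signal of reference genes. The 5 included Ttc21b and Ift43 near 0, at -0.01 and -0.04. They also included Wdr35, with -0.32 by its brightest probe set and 0.96 by its other measured one. Ift122 had 0.40 and Wdr19, also called IFT144, -0.36. BBSome genes, whose products carry membrane proteins out of the cilium, had a median of -0.02 over 8, which the same scaling turned to 0.20, and ran from Bbs9 at -0.62 to Bbip1 at 0.80, with Bbs1 at 0.75. None of the IFT-A or BBSome genes passed 2-fold with the main scaling.

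Motile cilia use the same transport machinery, and their markers were similar on both arrays. Of 13 listed 10 were measured, with a median of -0.06 (0.16 after scaling on the median signal of reference genes) and a summed signal of 22132 on the array labelled double null and 25161 in wild type. Tppp3, the brightest, had a log2 ratio of -0.07, and Tekt2, a sperm and cilium tektin, was 2.16-fold lower. Spag6 alone was under the floor on both arrays.

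Muscle and mesenchyme, which lie beneath the oral epithelium, gave these values on the same scale. All 10 skeletal muscle markers were measured and below 0, with a median of -1.03. Of these 5 were past 2-fold, among them Tnnc2 (3.23-fold), Des (2.90-fold), Ckm (2.62-fold) and Tnnt3 (2.46-fold), while Acta1, the brightest, had -0.71. Mesenchyme markers, of which 6 of 8 were measured, had a median of -0.08 (0.14 after scaling on the median signal of reference genes), with Prrx1, the brightest, at -0.24 and Msx1 3.71-fold lower.

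**Figure D4:**
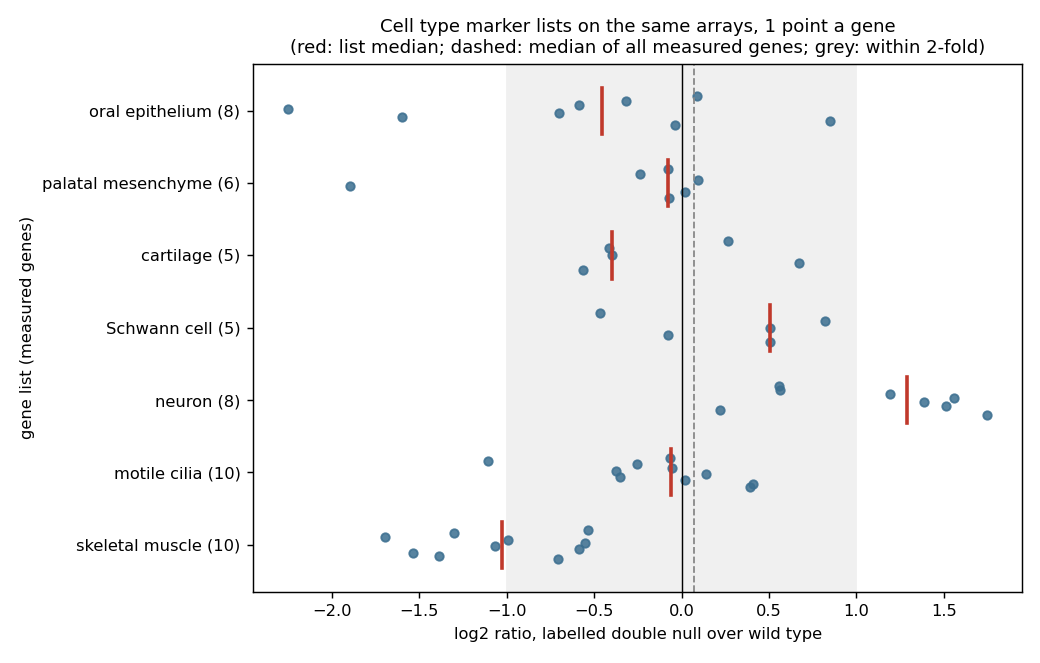
Log2 ratio (labelled double null over wild type) of each measured cell type marker, by list, with red bars for list medians. Neuron markers lie to the right (median 1.29), skeletal muscle markers to the left (median -1.03), and the medians of the other lists lie between -0.45 and 0.50.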

How the data were processed

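Total RNA (6 µg a sample) was labelled as biotinylated cRNA and hybridised to Affymetrix arrays, per the labels' protocols. The deposited values are linear signal intensities that the authors made with MAS5, as the submitters' processing notes name it; detection calls were not used here. The 64 control probe sets were left out of 45101. Arrays were scaled so that probe sets in the upper 50 percent of both had equal medians, set to the geometric mean of the 2 (factors 1.03 for the array labelled double null and 0.974 for wild type). The floor, the measured level, and log2 followed as given above. A gene was read from its brightest probe set (mean of log2 signals). Genes were named through the platform annotation. Of the listed pathway and ciliary genes, named were those past 2-fold, or else the 2 with the largest ratios, and the one furthest the other way, and of marker lists the brightest and up to 4 past 2-fold; Ihh and Dhh were named whatever their values, and 1 further item is not reported here. The members and lists were chosen with earlier results of these data known. The 13 alternatives covered scaling, floor, measured level, probe set summary and fold rule. Scripts were tested on simulated data. Python 3.11.15, numpy 2.4.6, pandas 2.3.3 and matplotlib 3.10.9 were used.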

Additional observations from a re-analysis of the deposited data

How the results depend on the processing

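No paired analysis was possible because each genotype had 1 array, and no array could be left out. Medians of the Hedgehog and ciliary genes, the other pathway genes and the other transport genes each moved by less than the SD of 0.51 in 11 alternatives. That SD is a spread of single probe sets and so a wide limit for a median. Signs could still turn, as for the other transport genes, from 0.03 to -0.12 with scaling on the median ratio of reference genes. Scaling on the median signal of reference genes left those genes themselves at a median log2 ratio of 0.37. It moved the median of all genes to 0.30 and that of the 9 Hedgehog and ciliary genes to 0.19, from 0.07 and -0.03. The count of these genes at least 2-fold higher was 0, but 1 with that scaling and 3 at 1.5-fold; the count lower was 0, but 1 without cross-hybridising probe sets. Among the other pathway genes, 1 was higher, but 3 with that scaling, 2 with the measured level at the 40th percentile, 3 at 1.5-fold and 0 at 3-fold, and none was lower, but 2 with scaling on the median ratio of reference genes and 4 at 1.5-fold. Among the other transport genes, 1 was lower, but 0 with the floor at the 20th or 60th percentile, with no floor, without cross-hybridising probe sets or with the measured level at the 75th percentile, and 2 at 1.5-fold; none was higher, but 1 with that scaling and 3 at 1.5-fold. Among all measured genes 474 were lower by 2-fold or more and 394 higher. Those counts were 284 and 844 with scaling on the median signal of reference genes, 264 and 257 with the floor at the 60th percentile, 243 and 237 with the measured level at the 75th percentile, 1320 and 1486 at 1.5-fold and 131 and 56 at 3-fold, while scaling on the median ratio gave 695 and 236. Apart from the lost lower call among transport genes, that of Kif17, the cause of these shifts was not tested. The number of arrays limits the precision, and 8 of the 26 probe sets were too dim to give a ratio of use.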
